A study of Mus musculus with 8 samples.

Results

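The 10 genes described here encode transcription factors that specify and maintain somatosensory neurons. They are Pou4f1, Pou4f2, Pou4f3, Isl1, Prdm12, Runx1, Runx3, Etv1, Tlx3 and Drgx. They were chosen by name from a table of 18560 mouse genes. The table listed 9 of them under these symbols and held Drgx as Prrxl1 (Entrez 107751), the symbol for which the RefSeq gene table gives Drgx as a synonym.

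RNA sequencing of tissue labelled dorsal root ganglia compared 4 libraries of genotype WT with 4 of genotype cKO, a conditional deletion of Alyref, which encodes an adaptor for mRNA export from the nucleus. Every genotype label carried P60. The labels name no strain, no Cre driver and no cell type for the deletion of Alyref, and do not say whether each library came from a single animal, so that p-values measure the spread between these libraries. Alyref itself was 22.04 ± 2.71 CPM (a gene's counts scaled to the size of the library) in the libraries labelled WT and 20.5 ± 0.946 CPM in those labelled cKO (SD, n = 4 each), a lower mean that did not pass the test (log2 fold change −0.11 ± 0.10, SE; adjusted p = 0.887, edgeR). WT and cKO are used below as the names the labels give.

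Sensory neurons of the dorsal root ganglion are born from neural crest cells, and their identity is built in steps. Isl1, a LIM homeodomain protein, and Pou4f1, a POU homeodomain protein also called Brn3a, act in nearly all of them to end the neurogenic programme and to turn on sensory genes. Prdm12, a PR domain protein, is needed for the pain-sensing (nociceptor) lineage, and its loss in humans causes insensitivity to pain. Runx1 directs the nociceptors that lack peptide transmitters, whereas Runx3 and Etv1 act in proprioceptors, the neurons that sense muscle stretch. Tlx3 and Drgx, which are homeodomain proteins, serve in sensory neurons and also in excitatory neurons of the dorsal horn of the spinal cord, the relay onto which pain fibres project. Isl1 is also made by spinal motor neurons, Runx1 and Runx3 by cells of the blood lineages, and Etv1 by several kinds of central neuron.

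Start regions of 4 members are shown because their gene-level values join transcripts from separate starts (Runx1, Runx3 and Etv1, each with 2 start regions in the RefSeq table) or because the gene had the widest range of levels (Prdm12). Each is the window from 250 bases before to 50 bases after an annotated start on GRCm38.p6, 5′ to 3′ on the gene's strand, and for the genes with 2 starts it is the upstream one. Capitals mark TGTGGT or its reverse complement ACCACA, the core letters bound by Runt domain proteins. The windows lie at chr16:92826025-92826324 on the minus strand (Runx1), chr4:135120395-135120694 on the plus strand (Runx3), chr12:38779832-38780131 on the plus strand (Etv1) and chr2:31639787-31640086 on the plus strand (Prdm12).
Runx1: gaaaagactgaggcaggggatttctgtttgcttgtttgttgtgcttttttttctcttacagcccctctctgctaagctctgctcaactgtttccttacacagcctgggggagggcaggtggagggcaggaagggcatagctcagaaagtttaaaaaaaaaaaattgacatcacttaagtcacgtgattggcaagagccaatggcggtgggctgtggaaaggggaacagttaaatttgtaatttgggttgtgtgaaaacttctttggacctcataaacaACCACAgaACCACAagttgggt
Runx3: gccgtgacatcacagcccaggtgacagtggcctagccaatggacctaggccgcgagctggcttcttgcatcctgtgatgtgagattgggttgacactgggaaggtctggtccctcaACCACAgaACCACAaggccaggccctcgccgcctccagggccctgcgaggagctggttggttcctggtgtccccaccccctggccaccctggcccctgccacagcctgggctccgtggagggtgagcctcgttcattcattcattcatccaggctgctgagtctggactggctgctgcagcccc
Etv1: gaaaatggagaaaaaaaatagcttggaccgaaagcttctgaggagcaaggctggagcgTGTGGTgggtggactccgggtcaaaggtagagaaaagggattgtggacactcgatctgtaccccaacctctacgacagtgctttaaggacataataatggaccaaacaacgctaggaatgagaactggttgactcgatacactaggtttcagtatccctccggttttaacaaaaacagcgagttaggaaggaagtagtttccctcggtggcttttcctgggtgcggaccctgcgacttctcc
Prdm12: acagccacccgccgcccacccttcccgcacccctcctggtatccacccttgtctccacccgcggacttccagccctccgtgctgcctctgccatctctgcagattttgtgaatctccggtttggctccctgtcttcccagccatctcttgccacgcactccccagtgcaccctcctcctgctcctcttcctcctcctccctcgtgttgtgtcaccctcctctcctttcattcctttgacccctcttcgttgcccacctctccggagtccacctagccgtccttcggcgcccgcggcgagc
Runx1 and Runx3 each held a pair of ACCACA words separated by the same short spacer, at positions 29 and 37 in Runx1 and −134 and −126 in Runx3, counted from the annotated start as position 1. Etv1 held 1 TGTGGT word at position −192, and Prdm12 held none in its window. The RefSeq spans of Prdm12 and Drgx begin upstream of their windows, at 31635026 and 32595867, and those ends were not searched. The search covered 12 start windows of 9 members, all but Pou4f3. Of these 12 windows 4 held the Runt letters, the fourth being that of Drgx, against 16.8% of 32851 such windows of all genes. The homeodomain letters TAATTA occurred in 0 of the 12 windows (5.29% of all windows), and the E-box CAGATG or its reverse complement CATCTG in 1, the second start of Etv1 (17.2% of all windows). These matches describe letters only, and counts per gene do not show which start was used.

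Between genes, levels were compared in TPM, a share of transcripts that takes transcript length into account. Etv1 was the most abundant member in 7 of 8 libraries, with a TPM of 44.4 in the median of the 7 libraries other than WT replicate 2. Drgx followed at 14.35, Pou4f1 at 7.81, Tlx3 at 7.65, Prdm12 at 5.68 and Isl1 at 5.64 TPM. Lower still were Runx1 at 2.02, Pou4f2 at 1.67, Pou4f3 at 0.89 and Runx3 at 0.35 TPM. Drgx exceeded Pou4f1 in 8 of 8 libraries and Isl1 exceeded Runx1 in 8 of 8. The middle of this order was not separated, since Pou4f1 exceeded Tlx3 in 5 of 8 libraries and Prdm12 exceeded Isl1 in 5 of 8.

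WT replicate 2 stood apart from the other 7 libraries, and results are given with and without it. Its Spearman correlations with the others were 0.944 to 0.967, against 0.990 to 0.996 among the rest. All 12 markers of ganglion sensory neurons, such as the actin-binding gene Avil and the sodium channel gene Scn10a, were highest there. Their summed level was 6283 TPM in WT replicate 2, 554.6 to 1961 TPM in the other WT libraries and 427.1 to 1665 TPM in the cKO libraries. All 15 spinal cord markers, among them the glycine transporter gene Slc6a5 and the astrocyte transporter gene Slc1a2, were lowest in WT replicate 2, with sums of 1363 TPM there, 3127 to 4384 TPM in the other WT libraries and 3535 to 4063 TPM in the cKO libraries. No marker of either list was at 0 in any library. In 7 of 8 libraries the spinal cord sum was thus above the sensory neuron sum. The sums are over different genes and do not measure shares of tissue. Whether the libraries held ganglia alone, as labelled, was not tested. In such bulk RNA, fewer cells of a type and less RNA per cell cannot be told apart.

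Across all genes, 0 of 15098 tested genes, or 0%, had an adjusted p below 0.05 (edgeR quasi-likelihood test, Benjamini-Hochberg), and 249 had an unadjusted p below 0.05, or 1.65% of genes. Of the 10 members 9 passed the filter on low counts. None of the 9 was called, and 2, Runx3 and Etv1, had an unadjusted p below 0.05 (edgeR's model across all genes, before adjustment). The fitted level was lower in the libraries labelled cKO for 8 of the 9 and higher for 1, the median being −0.83 on the log2 scale, against 51.5% of all tested genes lower and a median of 0.00. Without WT replicate 2 the split was 3 lower and 6 higher and the median was 0.05. For 0 of the 10 members were the groups free of overlap, against 1.52% of tested genes (0.603% with cKO higher). For 9 of 10 members the highest value came from WT replicate 2, and for the remaining one, Etv1, the lowest, while that library was highest for 37.5% and lowest for 36.8% of all tested genes.

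**Figure D1:**
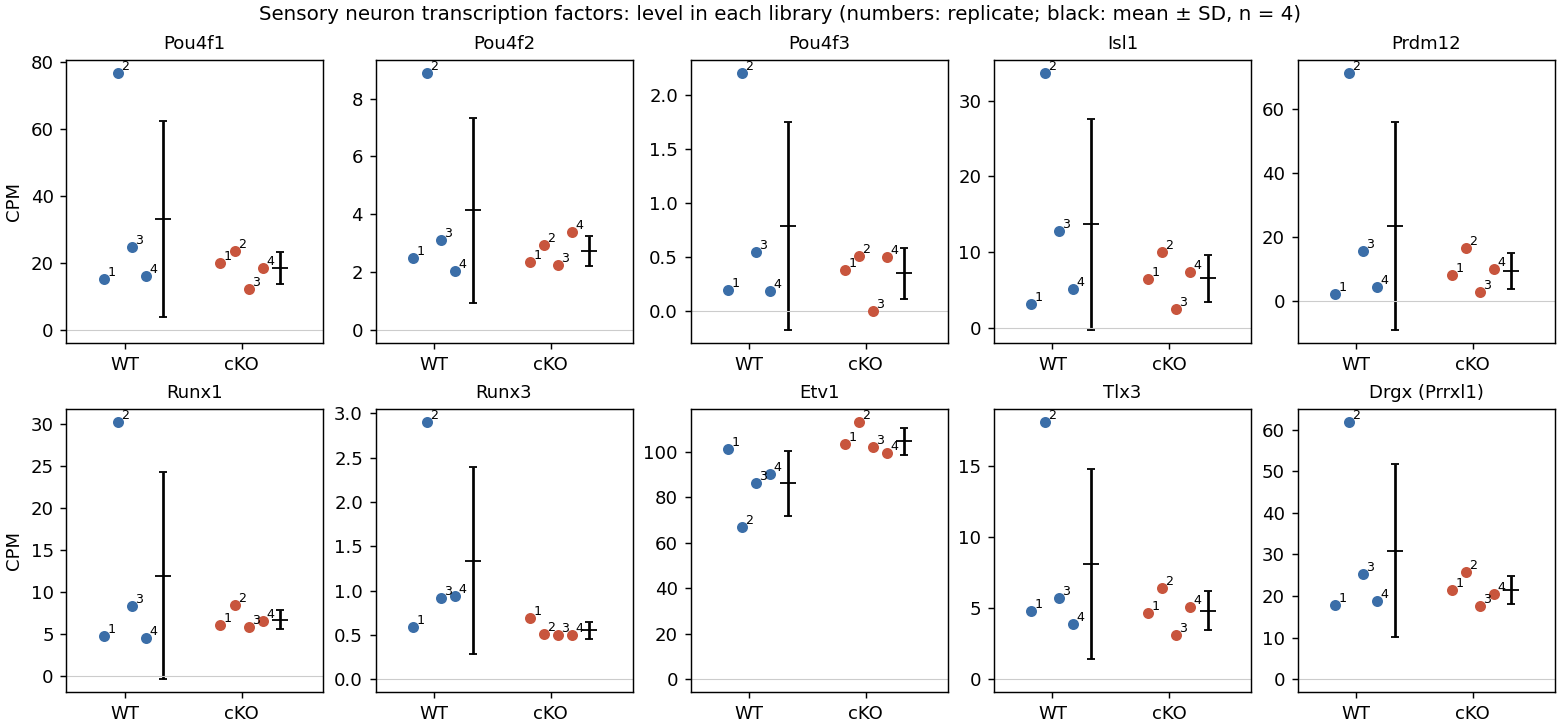
Level of each of the 10 transcription factor genes in CPM, on a linear axis that includes 0 in every panel, for 4 libraries labelled WT (blue) and 4 labelled cKO (red). Points carry the replicate number and black bars show the mean ± SD of the group, so that bars can reach below 0. WT replicate 2 is the highest point in 9 panels and the lowest in that of Etv1.

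Pou4f1 and Isl1, the pan-sensory pair, had lower means in the libraries labelled cKO, by amounts that did not pass the test and were smaller once WT replicate 2 was left out. Pou4f1 (Entrez 18996, chromosome 14, 104461675 to 104468118, GRCm38.p6) stood at 15.2, 76.8, 24.7 and 16.1 CPM in WT replicates 1 to 4 and at 19.9, 23.6, 12.1 and 18.6 CPM in cKO replicates 1 to 4. The cKO values lay within the range of the other 3 WT libraries except for replicate 3, which was the lowest of all. cKO differed from WT by −0.84 ± 0.52 on the log2 scale (SE; 95% interval −2.03 to 0.34; adjusted p = 0.887, edgeR), and without WT replicate 2 it was −0.01 ± 0.23 (SE). An exact permutation test over the 70 assignments of the labels, two-sided, gave p = 0.46.

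Isl1 (Entrez 16392, chromosome 13, 116298270 to 116309688) stood at 3.16, 33.7, 12.7 and 5.10 CPM in WT and at 6.44, 9.97, 2.45 and 7.31 CPM in cKO. The spread was wide in both groups, with means of 13.7 ± 13.97 and 6.54 ± 3.12 CPM (SD, n = 4 each), and the groups overlapped. The log2 fold change of Isl1 was −1.07 ± 0.72 (SE; adjusted p = 0.887, edgeR), and −0.10 ± 0.50 (SE) without WT replicate 2. The exact permutation test gave p = 0.49.

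The paralogs of Pou4f1 were scarcer. Pou4f2, or Brn3b, best known for its role in retinal ganglion cells (Entrez 18997, chromosome 8, 78433009 to 78436647), stood at 2.50, 8.89, 3.11 and 2.05 CPM in WT and at 2.34, 2.94, 2.26 and 3.37 CPM in cKO. Outside WT replicate 2 the 7 values spanned only 1.64-fold, and the log2 fold change of −0.61 ± 0.46 (SE; adjusted p = 0.887, edgeR) became 0.09 ± 0.22 (SE) without that library. Pou4f3, or Brn3c, the factor of inner ear hair cells, had 3, 38, 9 and 3 counts in WT and 6, 8, 0 and 8 counts in cKO, and did not pass the filter on low counts. Its 38 counts in WT replicate 2 were 2.21 CPM, with an exact 95% Poisson interval from 1.56 to 3.03 CPM. The 0 in cKO replicate 3 allows up to 0.188 CPM by a floor of 3 counts, and up to 0.231 CPM by the exact interval. The 3 counts in WT replicate 1 carry an interval from 0.0408 to 0.578 CPM. Tested without a filter, Pou4f3 had a log2 fold change of −1.17 ± 0.93 (SE; adjusted p = 0.878, edgeR), which did not pass the test at this depth. Without WT replicate 2 its mean was 0.311 ± 0.206 CPM in WT, against 0.347 ± 0.239 CPM in cKO (SD). The lower mean in cKO thus rested on WT replicate 2, and no fit without that library was made for Pou4f3. The Poisson intervals cover counting error only.

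Prdm12 (Entrez 381359, chromosome 2, 31635026 to 31655795) varied most of all members. It stood at 2.24, 71.4, 15.5 and 4.29 CPM in WT and at 8.02, 16.5, 2.70 and 10.06 CPM in cKO, a 31.8-fold range over the 8 libraries. Within each group it differed by several fold, and WT replicate 1 and cKO replicate 3 were both near the bottom. WT replicate 2 alone held 56.5% of all Prdm12 counts. cKO differed from WT by −1.33 ± 0.99 on the log2 scale (SE; 95% interval −3.59 to 0.93; adjusted p = 0.887, edgeR), and it turned to 0.34 ± 0.66 (SE) without WT replicate 2. The exact permutation test gave p = 0.80. An antisense gene model, Gm13425, overlaps Prdm12 in GENCODE M21, and whether the counts used strand is not given here.

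Runx1 (Entrez 12394, chromosome 16, 92601466 to 92826074) stood at 4.81, 30.2, 8.29 and 4.48 CPM in WT and at 6.12, 8.44, 5.83 and 6.50 CPM in cKO. The 4 cKO values lay close together, from 5.83 to 8.44 CPM (6.72 ± 1.17 CPM, SD), while the WT values lay both below and above them. The log2 fold change of Runx1 was −0.83 ± 0.59 (SE; adjusted p = 0.887, edgeR) and 0.20 ± 0.23 (SE) without WT replicate 2.

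Runx3 (Entrez 12399, chromosome 4, 135120645 to 135177990) was the scarcest tested member. It had 9, 50, 15 and 15 counts in WT and 11, 8, 8 and 8 counts in cKO, or 1.34 ± 1.06 and 0.552 ± 0.0952 CPM (SD, n = 4 each). It passed the filter through 4 libraries with at least 10 counts, 3 labelled WT and 1 labelled cKO, so that mostly the WT counts carried it past the filter. cKO differed from WT by −1.27 ± 0.52 on the log2 scale (SE; 95% interval −2.45 to −0.10; adjusted p = 0.887, edgeR), and without WT replicate 2 it was −0.56 ± 0.31 (SE). The exact permutation test gave p = 0.057, and p = 0.11 without WT replicate 2, where the smallest possible p is 0.057. WT replicate 1 lay below cKO replicate 1, so the groups overlapped. Lymphocyte and blood lineage markers shared the high value of Runx1 and Runx3 in WT replicate 2: 10 of 10, from the pan-leukocyte gene Ptprc to the T cell gene Cd3e, were highest in WT replicate 2, with sums of 46.35 TPM there, 17.4 to 25.4 TPM in the other WT libraries and 14.9 to 22.9 TPM in cKO. Of the 6 tested markers of this list 0 were called and 6 were lower in cKO (median log2 fold change −0.65). Without WT replicate 2, 5 could be tested and all 5 were lower (median −0.21), while the log2 fold change of Runx1 was 0.20 and that of Runx3 −0.56. Cd3e was near the floor of 3 counts, at 0.232 CPM in WT replicate 2 and at most 0.187 CPM elsewhere, and at 0 in at least 1 library. The part of these cells in the Runx values was not tested. For Runx1 and Runx3 too, GENCODE M21 has an overlapping antisense model, Gm26626 and Gm16224.

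Etv1, an ETS factor also known as ER81 (Entrez 14009, chromosome 12, 38780082 to 38870483), was the only tested member with a higher mean in the libraries labelled cKO. It stood at 101.0, 66.7, 86.4 and 90.1 CPM in WT and at 103.5, 113.1, 102.2 and 99.6 CPM in cKO. Of the WT libraries only replicate 1 reached the cKO range, just above cKO replicate 4. The means were 86.1 ± 14.3 and 104.6 ± 5.87 CPM (SD, n = 4 each), a log2 fold change of 0.28 ± 0.12 (SE; 95% interval 0.01 to 0.55; adjusted p = 0.887, edgeR). Without WT replicate 2 the difference was 0.18 ± 0.06 on the log2 scale (SE; adjusted p = 0.9997, edgeR), and the exact permutation test gave p = 0.057 with all libraries and p = 0.11 without that library. Spinal cord markers moved the same way as Etv1, with 15 of 15 higher fitted levels in cKO and all at their lowest in WT replicate 2; without WT replicate 2, 5 of 15 were higher and 10 lower. The part of spinal tissue in the Etv1 difference was not tested.

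Tlx3 and Drgx, which nociceptors share with the dorsal horn, had narrower ranges than Prdm12 or Isl1, as did every other tested member. Tlx3 (Entrez 27140, chromosome 11, 33200752 to 33203588) stood at 4.81, 18.1, 5.67 and 3.86 CPM in WT and at 4.67, 6.39, 3.07 and 5.06 CPM in cKO, and the groups overlapped. cKO differed from WT by −0.76 ± 0.50 on the log2 scale (SE; adjusted p = 0.887, edgeR), and 0.01 ± 0.24 (SE) without WT replicate 2. Drgx (chromosome 14, 32595867 to 32649246) stood at 17.8, 61.8, 25.3 and 18.8 CPM in WT and at 21.3, 25.9, 17.7 and 20.6 CPM in cKO. Its 7 values outside WT replicate 2 spanned 1.46-fold, and the log2 fold change of −0.54 ± 0.39 (SE; adjusted p = 0.887, edgeR) became 0.05 ± 0.15 (SE) without WT replicate 2.

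**Figure D2:**
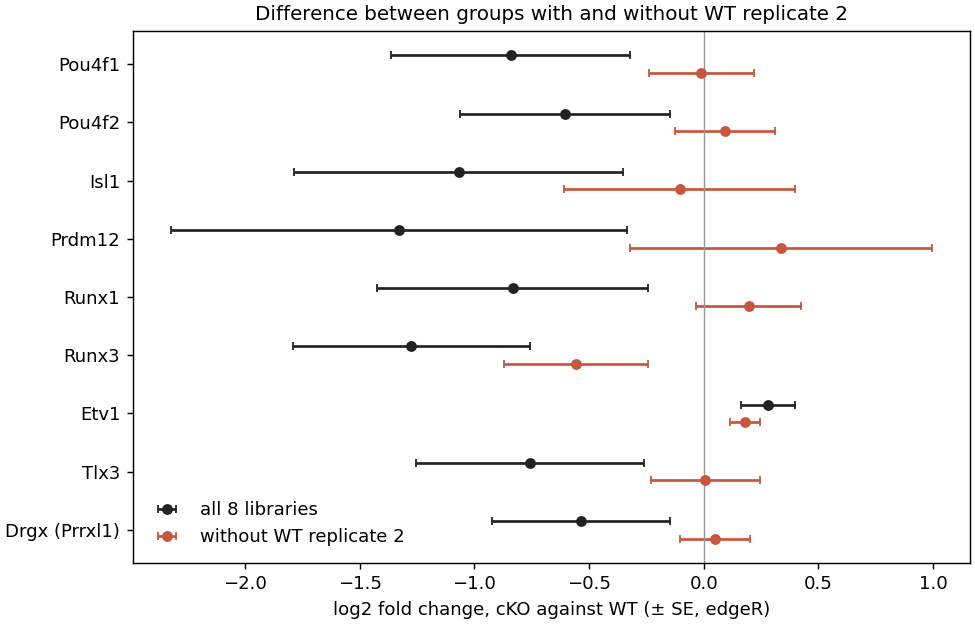
Log2 fold change of the 9 tested genes, libraries labelled cKO against WT, as points with bars of ± 1 SE (edgeR), with all 8 libraries (black) and without WT replicate 2 (red). Values run from −1.33 for Prdm12 to 0.28 for Etv1 with all libraries, and without WT replicate 2 from −0.56 for Runx3 to 0.34 for Prdm12.

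The members differed in how far their order over libraries matched that of the sensory neuron markers. The 12 sensory neuron markers averaged 7.26 log2 CPM in WT replicate 2, 5.21 in WT replicate 3, 3.58 in WT replicate 4 and 2.98 in WT replicate 1, and 5.02, 4.49, 4.00 and 2.59 log2 CPM in cKO replicates 2, 4, 1 and 3. Isl1 put the 8 libraries in the same order as these markers, and over the 21 pairs of the other 7 libraries it had the same order in 21. Pou4f1 had the same order in 20 of 21 pairs, Prdm12 and Drgx in 19, Tlx3 in 18, Runx1 in 17, Pou4f2 in 16, Runx3 in 12 and Etv1 in 9. These counts describe 8 libraries that share their depth and normalization, and they carry no test.

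The members also differed in how far they moved. Subtracting the marker mean reduced the SD of log2 CPM over the 8 libraries from 1.60 to 0.26 for Prdm12 and from 1.17 to 0.33 for Isl1, so these genes moved about as far as the markers did. For Pou4f1, Runx1, Tlx3, Pou4f2 and Drgx the SD was 0.81, 0.86, 0.75, 0.65 and 0.59 before and 0.74, 0.78, 0.83, 0.94 and 0.95 after subtraction. Without WT replicate 2 their SD was 0.36, 0.34, 0.34, 0.25 and 0.23 before and 0.65, 0.75, 0.73, 0.83 and 0.79 after. These genes moved with the markers, but less far. For Prdm12 and Isl1 the SD without that library fell from 1.14 to 0.28 and from 0.83 to 0.20. Over the 8 libraries Etv1 had an SD of 0.23 log2 CPM, which became 1.65 after subtracting sensory neuron markers. It became 0.20 after subtracting the mean of 15 spinal cord markers. Subtracting the spinal cord mean raised the SD of each of the other 8 tested members, for example to 1.92 for Prdm12 and 0.95 for Drgx. With WT replicate 2 left out, the SD of Etv1 was 0.129 before and 0.136 after subtracting the spinal cord mean, so it did not fall.

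**Figure D3:**
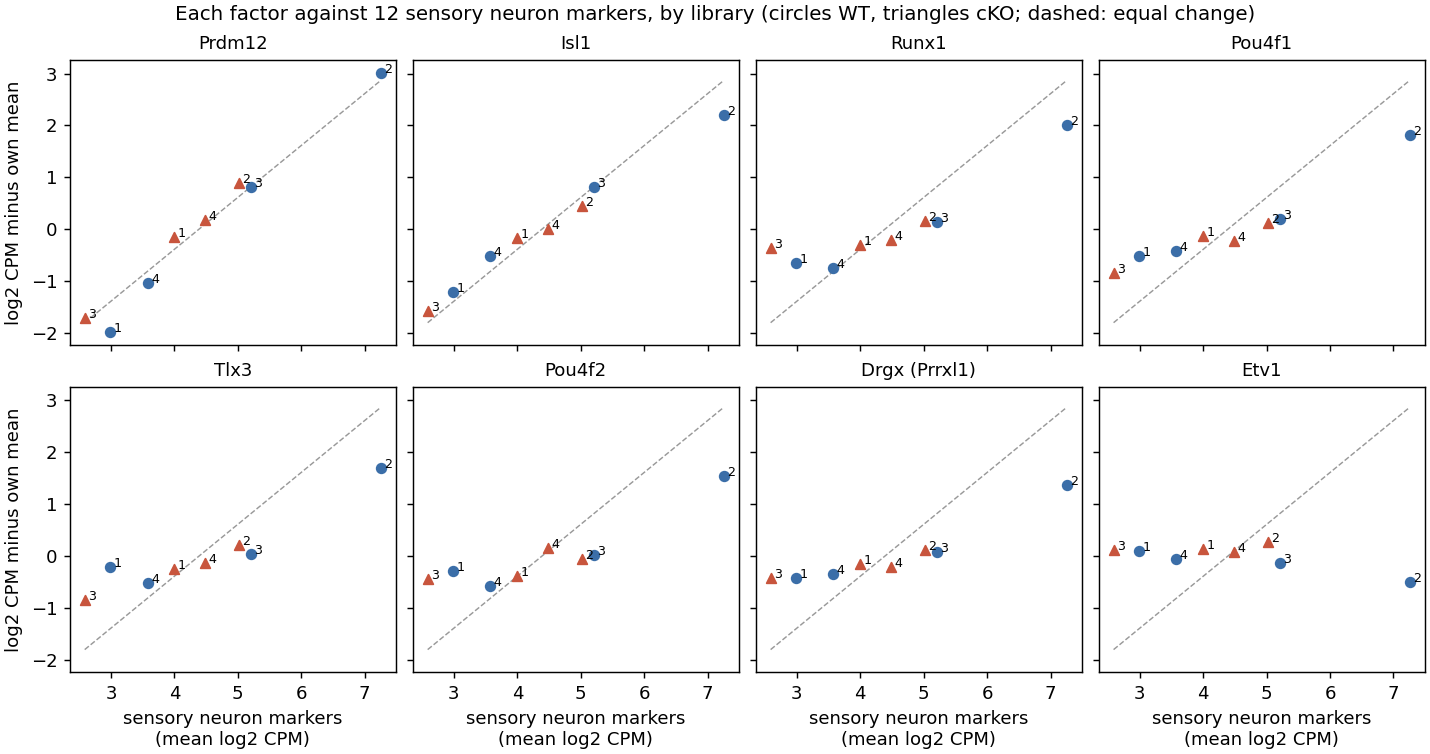
Log2 CPM of 8 transcription factor genes, each minus its own mean over the 8 libraries, against the mean log2 CPM of 12 sensory neuron markers in the same library (circles WT, triangles cKO, numbers for replicates). The dashed line marks equal change; Prdm12 and Isl1 lie close to it, Runx1, Pou4f1, Tlx3, Pou4f2 and Drgx have a flatter course, and Etv1 is lowest in the library with the most sensory RNA. Runx3 and Pou4f3 are left out for their low counts.

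Ratios between members within a library shifted accordingly. Prdm12 stood at 0.124 times the TPM of Drgx in WT replicate 1 and at 0.15 times in cKO replicate 3, the libraries with the least sensory neuron RNA, but at 1.17 times in WT replicate 2. Isl1 ranged from 0.42 times the TPM of Pou4f1 in cKO replicate 3 to 1.01 times in WT replicate 3. Pou4f1 and Tlx3 kept a ratio between 0.856 and 1.21 in all 8 libraries. With the sensory neuron marker mean as a covariate, 6 of 9 tested members had lower and 3 higher fitted levels in cKO. The log2 fold changes then lay between −0.75 for Runx3 and 0.39 for Prdm12, with adjusted p = 0.9997 for each (edgeR). Before adjustment, p was 0.004 for Prdm12, 0.0255 for Etv1 and 0.0706 for Runx3 (edgeR's model across all genes).

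The genes whose course over the 8 libraries was most like each member were found by the root mean square difference of centred log2 CPM among 14630 genes with a mean of at least 1 CPM. Closest to Isl1 were Galnt5, a glycosyltransferase gene, and Calca, which encodes the pain neuropeptide CGRP, at differences of 0.11 and 0.14 log2 CPM. Prdm12 was nearest to Cyp4f39, Tmem45b and Pirt, which encodes a regulator of the capsaicin receptor, at 0.18, 0.18 and 0.20 log2 CPM. Cyp4f39 was at 6.74 CPM in WT replicate 2 and at 0.066 to 1.16 CPM elsewhere, so its course outside that library rests on few counts. Pou4f1 was nearest to Txn1, a thioredoxin gene, Atf3, a nerve injury factor, and Synpr, a synaptic vesicle protein gene, at 0.06, 0.10 and 0.11 log2 CPM. Among the members themselves, Pou4f1 and Tlx3 were the closest pair, at 0.15 log2 CPM.

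Runx1 was nearest to Mcub, Plcb3 and Synpr at 0.13 log2 CPM each, Tlx3 to Crip1, Procr and Crip2 at 0.11, 0.11 and 0.12 log2 CPM, and Pou4f2 to Sfrp5, Kcnd1 and Tppp3 at 0.13, 0.13 and 0.14 log2 CPM. Drgx was nearest to Mal2, Anxa5 and Pqlc1, at 0.04, 0.04 and 0.05 log2 CPM. Etv1 was nearest to Csrp1, Lzts2 and Hdac11, at 0.04, 0.06 and 0.07 log2 CPM. Csrp1 had the same course as Etv1, at 318.6 CPM in WT replicate 2 and 403.5 to 513.2 CPM elsewhere. Many genes shared the high value in WT replicate 2, and likeness without that library was not computed.

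The median of other transcription factors of the sensory lineage lay near 0. Of 28 such genes 26 were tested and 0 were called, with 6 higher and 20 lower in the libraries labelled cKO and a median of −0.06 on the log2 scale, or 0.00 without WT replicate 2, when 13 were higher and 13 lower. Isl2, the paralog of Isl1, stood at 26.2 ± 32.9 and 11.3 ± 6.05 CPM (SD, n = 4 each), with 74.8 CPM in WT replicate 2, and had the widest difference of the list (log2 fold change −1.21; adjusted p = 0.887, edgeR), which turned to 0.18 without WT replicate 2. Eya1, a transcriptional coactivator, was 3.37 ± 1.06 and 2.58 ± 0.176 CPM, and Casz1, a zinc finger factor, 13.4 ± 6.35 and 9.89 ± 1.17 CPM. Cbfb, the subunit that Runx proteins bind, was 77.7 ± 40.8 and 60.3 ± 8.06 CPM. Ldb1, the adaptor of LIM homeodomain proteins such as Isl1, was 77.9 ± 0.556 and 75.2 ± 1.98 CPM, and Ebf3 was 85.3 ± 9.01 and 84.8 ± 9.19 CPM (SD, n = 4 each). Neurog1, the neurogenin that starts the nociceptor lineage in the embryo, was at 0 in the 7 libraries other than WT replicate 2.

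Genes known to depend on the members were described in the same way. Of 13 genes of nociceptors that depend on Runx1, 11 were tested and 0 called, all 11 with lower fitted levels in cKO (median log2 fold change −1.14). All 13 were highest in WT replicate 2, and without that library 7 were higher and 4 lower with a median of 0.07. Among them Mrgpra3, an itch receptor gene, was 2.50 ± 3.56 and 0.664 ± 0.417 CPM, P2rx3, an ATP-gated channel gene, 71.0 ± 89.0 and 28.9 ± 16.5 CPM, and Ret, the GDNF receptor gene, 199.6 ± 97.7 and 161.1 ± 18.4 CPM (SD, n = 4 each). Of 7 further nociceptor genes, Prdm12 among them, 7 were lower (median −1.25) and 0 called, and without WT replicate 2 the split was 4 higher and 3 lower with a median of 0.02.

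Most genes of proprioceptors, like Etv1 and all 15 spinal cord markers, were lowest in WT replicate 2, where Runx3 was highest. Of 6 tested, 0 were called, 5 were higher and 1 lower in the libraries labelled cKO (median log2 fold change 0.11, and 0.04 without WT replicate 2), and 5 were lowest in WT replicate 2. Pvalb, a calcium-binding protein gene of proprioceptors and of many central neurons, was 100.3 ± 18.2 and 113.3 ± 18.8 CPM, Calb2 161.8 ± 66.3 and 205.1 ± 10.08 CPM, and Spp1 192.5 ± 6.95 and 199.7 ± 13.3 CPM (SD, n = 4 each). Most transcription factors of dorsal spinal cord neurons had the opposite course to Tlx3 and Drgx in WT replicate 2, where 11 of 16 were lowest and 1 was highest. The 11 include Ptf1a, which was at 0 there and equally at 0 in several other libraries. Over all tested genes, 36.8% were lowest and 37.5% highest in WT replicate 2. Of the 16 factors 15 were tested and 0 called, with 11 higher and 4 lower in cKO (median 0.07). Without WT replicate 2, 5 were higher and 10 lower (median −0.06). Lbx1, which marks dorsal interneurons, was 11.5 ± 2.38 and 12.9 ± 1.15 CPM, and Zic2, the one gene of this list with an unadjusted p below 0.05 (edgeR's model across all genes, before adjustment), was 11.6 ± 1.12 and 8.80 ± 1.67 CPM (SD, n = 4 each; adjusted p = 0.887, edgeR).

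Of 9 motor neuron genes, which bear on Isl1, 4 were highest in WT replicate 2 (Isl2, Prph, Ret and Mmp9) and 4 were lowest there. The acetylcholine genes Chat, Slc5a7 and Slc18a3 were among the latter, at 6.50, 42.3 and 10.3 CPM, against 17.0 to 24.1, 86.9 to 101.7 and 28.6 to 42.0 CPM in the other libraries. Isl1 was highest in WT replicate 2. Isl2 and Ret are also counted above, among the sensory lineage factors and the Runx1-dependent nociceptor genes. Of the 9 motor neuron genes 0 were called, with 4 higher and 5 lower in cKO (median log2 fold change −0.15, and 0.09 without WT replicate 2). The summed level of 11 microglia and macrophage markers was 486.8 TPM in WT replicate 2, 447.4 to 488.8 TPM in the other WT libraries and 471.2 to 515.6 TPM in cKO. Of 10 markers of Schwann cells and satellite glia 7 were highest in WT replicate 2, and of 8 markers of fibroblasts and meninges 7 were, the latter with sums of 2296 TPM there, 489.7 to 995.9 TPM in the other WT libraries and 587.2 to 752.4 TPM in cKO. Of these 8 markers 0 were called and 8 were lower in cKO, 3 of them with an unadjusted p below 0.05 (edgeR's model across all genes, before adjustment). Their median was −0.71 on the log2 scale, and −0.19 without WT replicate 2. The sum of 6 skeletal muscle markers ran from 30.4 to 469.9 TPM in WT and from 83.9 to 420.1 TPM in cKO. The part of these cells in the members' values was not tested.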

How the data were processed

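Estimated counts per gene, of which 10.3% to 11.0% per library had a fractional part, and TPM values were used as the authors deposited them. The FPKM values and the authors' normalized counts, a scaled signal per the file headers, were not used. HISAT2 2.2.1, Bowtie2 2.4.5, RSEM 1.3.1, GRCm38 and mm10 are named, without roles, in the submitters' processing notes; annotation and filters are not stated there. RSEM divides reads that fit several genes by estimation. The columns named Ctrl were matched to the samples titled WT with the same number. Totals were 15522915 to 16482614 estimated counts per library.

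Counts were rounded and tested with edgeR 4.0.16 (R 4.3.3): filterByExpr by group, TMM, quasi-likelihood F test with group as the only term, Benjamini-Hochberg adjustment over 15098 genes, threshold 0.05. CPM used TMM-scaled totals, and log2 CPM a prior count of 2. SEs came from the fold change and F. Exact permutation tests used the 70 assignments of labels (smallest p 0.029). The code was checked on simulated data. Alternatives used DESeq2 1.42.0, limma 3.58.1, other filters, scalings and units, a marker covariate, a replicate block and each library left out. The design text mentions 4 sequencing batches but not which library was in which, so no within-batch value could be given. The 28 pairs of libraries all differed by more than sampling noise (chi-square per degree of freedom 3.64 to 112.3).

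The members and gene lists were chosen with earlier results of these data known. All members are given; from other lists the text names some of the 3 genes of lowest p and 3 of highest TPM, and further genes (Ptprc, Cd3e, Neurog1, Avil, Scn10a, Slc1a2, Slc6a5, Prph, Mmp9, Chat, Slc5a7 and Slc18a3) were picked after their values were seen. Some genes that the rules would name are not reported here. Prrxl1 was taken out of the dorsal spinal cord list because it is Drgx. Promoters are from RefSeq on GRCm38.p6, matched by symbol for the 9 members searched, and positions from the RefSeq gene table of the same build. Pou4f3 was left out of the promoter search because member windows on chromosome 18, where it lies, were excluded. The windows of all genes were not filtered by chromosome.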

Additional observations from a re-analysis of the deposited data

Results flagged for a closer look

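In 7 of 20 groups of 4 (10 members in 2 groups) 1 library lay far from the other 3 by Dixon's criterion on CPM. Independent groups of normally distributed values pass it by chance in about 1 of 20. The 20 groups here share the same libraries, so the 7 cannot be set against that rate. WT replicate 2 was the library apart in 6 of the 7 groups: Pou4f1 at 76.8 CPM, Pou4f2 at 8.89, Runx1 at 30.2, Runx3 at 2.90, Tlx3 at 18.1 and Drgx at 61.8 CPM. Isl1, Prdm12 and Pou4f3 had their highest value in the same library without passing the criterion. The seventh was Runx3 in cKO, where replicate 1 lay at 0.694 CPM above the other 3. That difference is 11 counts against 8 in each of the others, with an exact 95% Poisson interval for replicate 1 from 0.347 to 1.24 CPM that holds their levels.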

How the results depend on the processing

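With TMM or DESeq2 size factors, no filter or a stricter one, limma-voom and limma on log2(TPM + 0.1) or log2(TPM + 1), 0 members were called and 1 had a higher level in cKO. DESeq2 called 1 gene of all tested and no member. With the sensory neuron marker covariate 3 members were higher in cKO, and the log2 fold changes of Runx1 and Prdm12 changed sign to 0.00975 and 0.39; the members with an unadjusted p below 0.05 were Prdm12 and Etv1 instead of Runx3 and Etv1. Leaving out 1 library gave 0 to 1 called genes (1 without WT replicate 2), 0 called members and 1 to 6 members higher in cKO. The log2 fold change then ranged from −0.83 to 0.0939 for Pou4f2, −1.10 to 0.20 for Runx1, −1.75 to 0.34 for Prdm12, −0.99 to 0.00629 for Tlx3 and −0.72 to 0.0508 for Drgx, and each upper end was the value without WT replicate 2. Over these alternatives Pou4f1 lay between −1.08 and −0.01, Isl1 between −1.39 and −0.07, Runx3 between −1.51 and −0.35 and Etv1 between 0.18 and 0.39, and the adjusted p of the tested members lay between 0.631 and 0.9997. Samples with the same number were not paired, since their deviations correlated at 0.008, 0.045, −0.037 and 0.253 and WT replicates 1 to 3 correlated best with another number. With a replicate block 0 genes and 0 members were called, 1 member was higher in cKO, and the log2 fold changes lay between −1.07 (Runx3) and 0.29 (Etv1). Pou4f3 and Runx3 rest on few counts, so depth limits what can be said of them.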
